A study of Mus musculus with 6 samples.

Results

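The 10 genes described here are ligands, receptors and target genes of the Notch pathway, taken as all probe sets that the platform's probe table assigns to 1 gene symbol alone, that symbol being Dll1, Dll3, Dll4, Jag1, Notch1, Notch2, Notch3, Hes1, Hes5 or Hes6. These were 18 of 45037 probe sets, and 10 of the 18193 genes with such a probe set. Where a gene has several probe sets, the one brightest on average over the arrays stands for it. The genes were measured at E10.5 in tauGFP-positive cells sorted from mouse hindbrains. In the swap group (n = 3 arrays) the Hoxb1 locus made another Hox protein in place of Hox-B1, and in the control group (n = 3 arrays), Hoxb1-IRES-tauGFP, it made Hox-B1 itself. In both groups tauGFP, green fluorescent protein joined to the microtubule protein tau, was expressed from the same locus through an internal ribosome entry site. The sort was thus aimed at cells in which Hoxb1 was active, whatever their type. Hindbrains of entire litters were pooled, and the labelled tissue was rhombomere 4, where facial motor neurons arise. The copies of the allele per embryo are not given in the labels used here. The series design calls the 3 replicates of a genotype independent and biological.

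Notch signalling passes between neighbouring cells. A Delta or Jagged ligand on one cell binds a Notch receptor on the next, the receptor is cut, and its intracellular part enters the nucleus, where it joins the DNA-binding protein RBPJ and switches on Hes and Hey repressor genes. In the neural tube Hes1 and Hes5 hold progenitors back from differentiation, while newly born neurons raise Dll1, Dll3 and Hes6. This lateral inhibition keeps a stock of progenitors while neurons are produced.

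Promoter windows of Hes5, Dll1, Dll3 and Hes6 are printed because they hold letters known to bind the nuclear end of the pathway or the proneural factors that act upstream of Delta genes. Each is the 250 bases before a RefSeq transcript start (assembly GRCm38.p6), read 5′ to 3′ on the gene's strand. Capitals mark GTGGGAA or its reverse complement TTCCCAC, the core that RBPJ binds, and CAGCTG, an E-box core that proneural basic helix-loop-helix factors bind. Both strands were searched, CAGCTG reads the same on both and was counted once, and the motifs do not overlap each other. The Hes5 window lies at chr4:154960673-154960922 (plus strand), that of Dll1 at chr17:15376933-15377182 (minus strand), that of Dll3 at chr7:28301786-28302035 (minus strand) and that of Hes6 at chr1:91413223-91413472 (minus strand).
Hes5: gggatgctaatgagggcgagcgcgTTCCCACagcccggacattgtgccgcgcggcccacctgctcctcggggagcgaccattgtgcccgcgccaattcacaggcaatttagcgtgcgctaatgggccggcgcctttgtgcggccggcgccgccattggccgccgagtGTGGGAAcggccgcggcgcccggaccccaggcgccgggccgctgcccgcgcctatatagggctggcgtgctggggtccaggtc
Dll1: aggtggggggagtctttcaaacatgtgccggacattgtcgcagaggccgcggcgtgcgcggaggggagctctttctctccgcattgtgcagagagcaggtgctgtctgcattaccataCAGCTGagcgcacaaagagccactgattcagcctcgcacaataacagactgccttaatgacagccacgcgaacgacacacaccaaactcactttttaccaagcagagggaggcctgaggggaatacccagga
Dll3: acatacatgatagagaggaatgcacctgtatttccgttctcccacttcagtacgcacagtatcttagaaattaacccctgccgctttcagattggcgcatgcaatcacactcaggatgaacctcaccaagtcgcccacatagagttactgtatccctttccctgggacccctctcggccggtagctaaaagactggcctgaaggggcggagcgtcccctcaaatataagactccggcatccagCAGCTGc
Hes6: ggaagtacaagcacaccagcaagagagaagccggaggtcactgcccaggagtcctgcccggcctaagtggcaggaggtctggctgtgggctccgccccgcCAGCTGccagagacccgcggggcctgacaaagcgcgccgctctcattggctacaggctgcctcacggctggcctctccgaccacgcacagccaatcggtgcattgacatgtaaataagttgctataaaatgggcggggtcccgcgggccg

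The Hes5 window held the RBPJ core at 2 places, TTCCCAC from 226 to 220 bases and GTGGGAA from 83 to 77 bases before the start. Of 32851 RefSeq promoter windows of that length 5.42% held the core at least once and 0.161% held it 2 times or more. Of the 11 windows found for 9 of the 10 genes (Hes1 had none in the table), Hes5's was the 1 window with this core. CAGCTG was found in 5 of the 11 windows, those of Dll3, Jag1, 1 of 2 starts of Dll1 and both starts of Hes6, against 13.0% of all windows. In Dll3 it lay from 7 to 2 bases before the start. A match shows only that these letters are present, and no binding was measured.

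Arrays were alike in scale, with a 2% trimmed mean of 500 and median intensities of 118 to 139. Values are log2 intensities, and levels of different probe sets are not set against each other. The number of arrays limits the precision. Across probe sets the arrays correlated at 0.885 to 0.907. In a principal component analysis of the probe sets from the median level up, the first component held 32.3% of the variance. On it control array 1 (-48.6) and swap array 1 (-34.6) lay at one end. Swap array 2 (-0.49) lay between them and the other arrays, which were at 24.5 to 30.1. Hoxb1, whose locus was altered, was at 12.54, 12.06 and 11.78 in swap arrays 1, 2 and 3 and at 12.67, 12.68 and 12.55 in control arrays 1, 2 and 3. The part of the transcript that its probe set reads is not known, so it does not check the labels. Of the 8 measured rhombomere 4 and facial motor neuron markers all reached the median level of all probe sets (an intensity of 114), as did all 9 neural progenitor and all 10 neuron markers. So did 11168 of all 18193 genes, 6 of 8 mesenchyme, 4 of 8 macrophage and 1 of 10 endothelial markers. The samples thus held transcripts of progenitors as well as of neurons. Reaching this level does not show which cells the transcripts came from. In such bulk samples, fewer cells of a type and less RNA per cell cannot be told apart.

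None of the 10 genes passed the test between the genotypes, made with limma, a linear model that shares information on variance across all probe sets, and with Benjamini-Hochberg adjustment over all of them (adjusted p under 0.05 for 0 of 10 genes and 0 of their 18 probe sets). The background was 0% as well, with 0 calls among the 45037 probe sets. Of the 18 probe sets 0 had an unadjusted p under 0.05, against 4.57% of all. Differences below are swap minus control in log2, with SE and 95% interval from that fit. limma's adjusted p was 1.00 for each member. The 10 differences ran from -0.21 for Notch1 to 0.30 for Dll1, with 4 above 0 and 6 below, and their median was -0.05, against 0.01 over all genes. For 9 of the 10 genes the 95% interval lay within 2-fold either way, the exception being Dll4, the 1 member below the median level. Over all genes at or above that level this held for 68.1%.

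**Figure D1:**
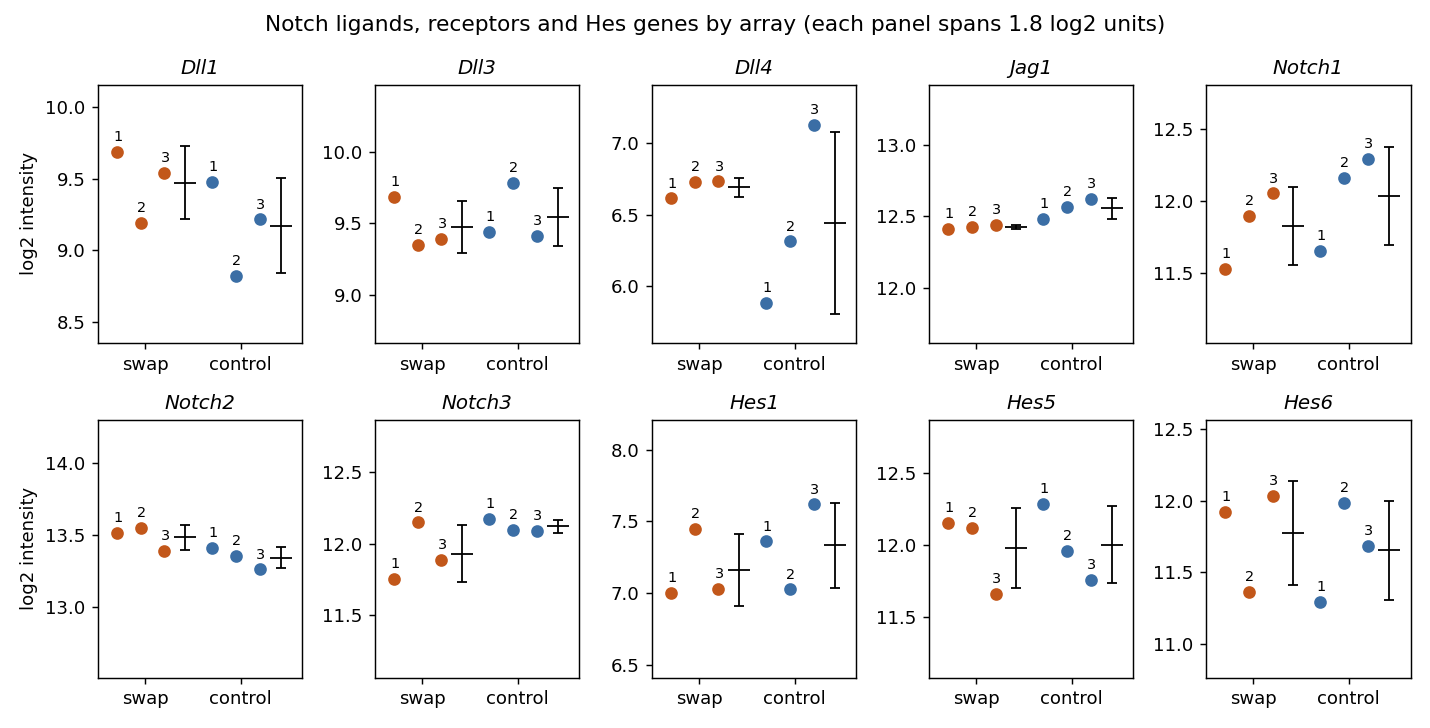
Log2 intensity of the probe set with the highest mean for each of the 10 genes, swap arrays left and control arrays right. Points are arrays with their replicate number, and the black bar is the mean with SD (n = 3). Jag1 is the 1 gene whose swap and control arrays do not overlap, over a range of 0.21.

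Among the ligands, Dll1, which newly born neurons present to their neighbours, was at 9.69, 9.19 and 9.54 in swap arrays 1, 2 and 3 and at 9.48, 8.82 and 9.21 in control arrays 1, 2 and 3. In both genotypes array 1 was the highest and array 2 the lowest, and the groups overlap. Its difference was 0.30 (SE 0.28, 95% interval -0.39 to 0.99), and it was 0.46 without control array 1 and 0.13 without control array 2. Its interval runs from 0.764-fold to 1.99-fold.

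Dll3, a divergent Delta that acts inside the cell rather than as an activating ligand, was at 9.69, 9.35 and 9.39 in the swap arrays and at 9.44, 9.78 and 9.41 in the control arrays. One array of each genotype, swap array 1 and control array 2, was above the rest. The difference was -0.07 (SE 0.24, 95% interval -0.65 to 0.51), and without control array 2 it was 0.05.

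Dll4, a Delta ligand known from endothelium and also from some neural progenitors, was at 6.61, 6.73 and 6.73 in the swap arrays and at 5.88, 6.31 and 7.13 in the control arrays. The swap arrays lay within 0.12 of each other and the control arrays spread over 1.25, on both sides of them. The difference was 0.25 (SE 0.36, 95% interval -0.65 to 1.15), and without control array 1 it was -0.03. Its other probe set, also below the median level, gave -0.60 (SE 0.38).

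Jag1, a Jagged ligand found in restricted progenitor domains of the neural tube, was at 12.41, 12.43 and 12.44 in the swap arrays and at 12.48, 12.57 and 12.62 in the control arrays. Every swap array was lower than every control array, so with a gap of 0.04 this was 1 of 10 members without overlap, against 8.85% of all genes. The difference was small, -0.13 (SE 0.20, 95% interval -0.62 to 0.36), or 0.651-fold to 1.28-fold, and the two-sided exact permutation p was 0.1, the smallest that 3 against 3 arrays can give. Its other probe sets also had negative differences, -0.21 (SE 0.38) and, for a probe set below the median level, -1.43 (SE 0.58), and the mean of the 3 probe sets gave -0.59 (SE 0.25, limma's adjusted p = 1.00). That last probe set read 4.97, 6.29 and 4.31 in the swap arrays and 7.17, 6.12 and 6.56 in the control arrays, which overlap. It held the widest difference of the 18, with limma's adjusted p = 1.00 and an interval from -2.87 to 0.01.

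Among the receptors, Notch1, the receptor of most neural progenitors, was at 11.53, 11.90 and 12.05 in the swap arrays and at 11.65, 12.16 and 12.29 in the control arrays. Array 1 was the lowest and array 3 the highest in both genotypes, and the groups overlap. The difference was -0.21 (SE 0.29, 95% interval -0.91 to 0.50), while its other probe set gave 0.23 (SE 0.28). Without swap array 1 the difference was -0.06, and without control array 1 it was -0.40.

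Notch2, a second receptor of neural progenitors, was at 13.51, 13.55 and 13.39 in the swap arrays and at 13.41, 13.36 and 13.26 in the control arrays. The lowest swap array lay just under the highest control array. The difference was 0.14 (SE 0.20, 95% interval -0.36 to 0.64), and its other probe set gave -0.45 (SE 0.55).

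Notch3, known from mural cells of vessels and from neural progenitors, was at 11.76, 12.15 and 11.89 in the swap arrays and at 12.18, 12.10 and 12.09 in the control arrays. Swap arrays 1 and 3 lay below every control array and swap array 2 among them, with a difference of -0.19 (SE 0.22, 95% interval -0.73 to 0.35). It was -0.10 without swap array 1 and -0.30 without swap array 2. Its other probe set read 10.55, 11.29 and 11.20 in the swap arrays and 11.45, 11.30 and 11.54 in the control arrays. There the groups do not overlap, by 0.01, and the difference was -0.42 (SE 0.28, 95% interval -1.11 to 0.28). With the brightest Jag1 probe set, 2 of the 18 probe sets had arrays that do not overlap, against 8.83% of all probe sets.

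Among the targets, Hes1, a repressor that oscillates in progenitors, was at 7.00, 7.45 and 7.03 in the swap arrays and at 7.36, 7.02 and 7.62 in the control arrays. Both groups span much the same values. The difference was -0.17 (SE 0.27, 95% interval -0.84 to 0.49), and with 1 array left out it lay between -0.33 and -0.03.

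Hes5, whose promoter window held 2 separate RBPJ cores and which is read as an output of Notch in the neural tube, was at 12.15, 12.12 and 11.66 in the swap arrays and at 12.29, 11.96 and 11.76 in the control arrays. Array 3 was the lowest and array 1 the highest of each genotype. The difference was -0.02 (SE 0.27, 95% interval -0.69 to 0.64), or 0.621-fold to 1.56-fold, and its sign turned under several settings given in the closing section. The second Hes5 probe set gave 0.22 (SE 0.39), and its values were 8.90, 9.96 and 9.28 in the swap arrays and 9.33, 9.51 and 8.65 in the control arrays.

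Hes6, which opposes Hes1 and favours neuronal differentiation, was at 11.92, 11.36 and 12.04 in the swap arrays and at 11.30, 11.99 and 11.69 in the control arrays. Each genotype holds a low array, swap array 2 and control array 1, and the groups interleave. The difference was 0.12 (SE 0.31, 95% interval -0.65 to 0.88). It was -0.01 without swap array 3 and -0.06 without control array 1, and the second probe set gave -0.10 (SE 0.39). The brightest probe sets of Hes5 and Hes6 are of the platform's x_at type, whose probes can bind transcripts of other genes too, and that of Notch3 is of the s_at type, shared by several transcripts.

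**Figure D2:**
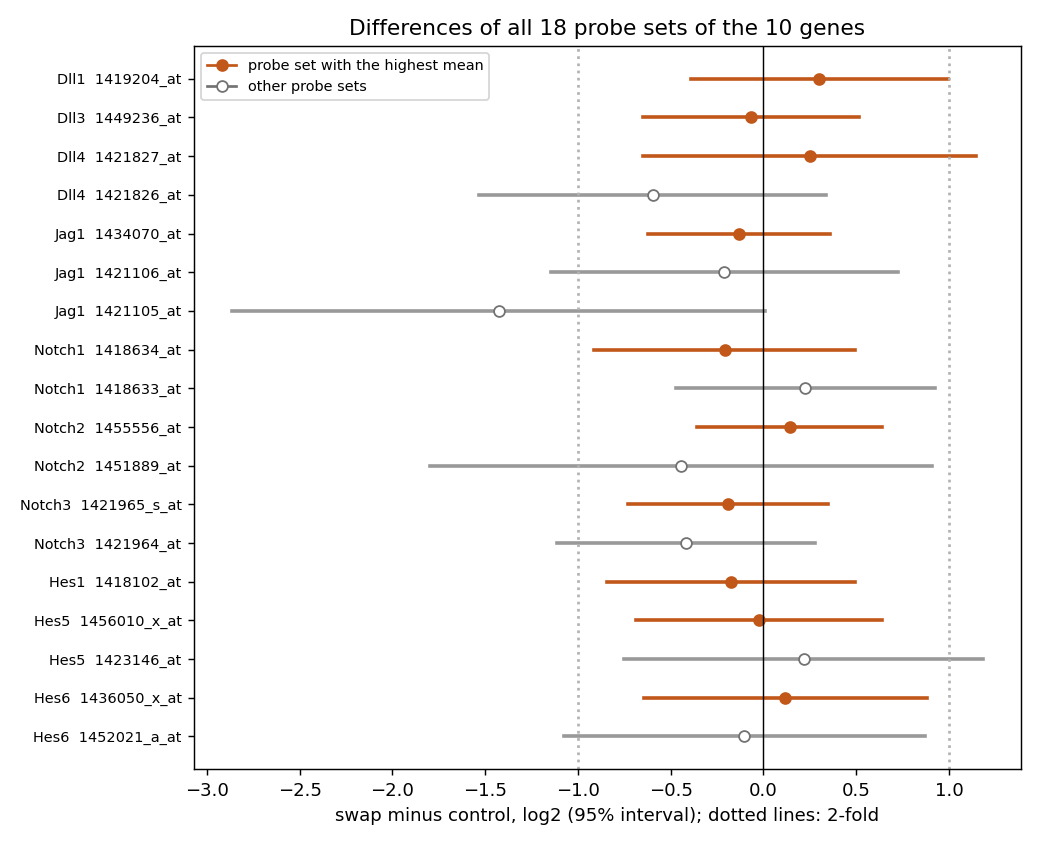
Swap minus control difference (log2, horizontal axis) of all 18 probe sets with 95% intervals from limma. Filled points are the probe set with the highest mean for a gene and open points the others, and dotted lines mark 2-fold. All 18 intervals include 0.

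Probe sets of 1 gene often disagreed in sign. Of the 7 members with several probe sets, Jag1 and Notch3 had differences of 1 sign, and Dll4, Notch1, Notch2, Hes5 and Hes6 had both. Mixed signs were thus found in 5 of 7, against 62.2% of the 9010 genes with several probe sets. The sign of these 5 differences therefore depends on the probe set read.

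For 10 of 10 genes the difference between the genotypes was smaller than the range between arrays of at least 1 genotype, and for 7 it was smaller than the ranges within both. Jag1 and Notch2 were the steadiest, with ranges over all 6 arrays of 0.21 and 0.29, and Dll4 (1.25) and Dll1 (0.87) ranged most. Swap array 1 was the lowest array for 4 of the 10 genes and control array 3 the highest for 4. Without both replicate 1 arrays, a setting added after the data were seen, limma again called 0 members.

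**Figure D3:**
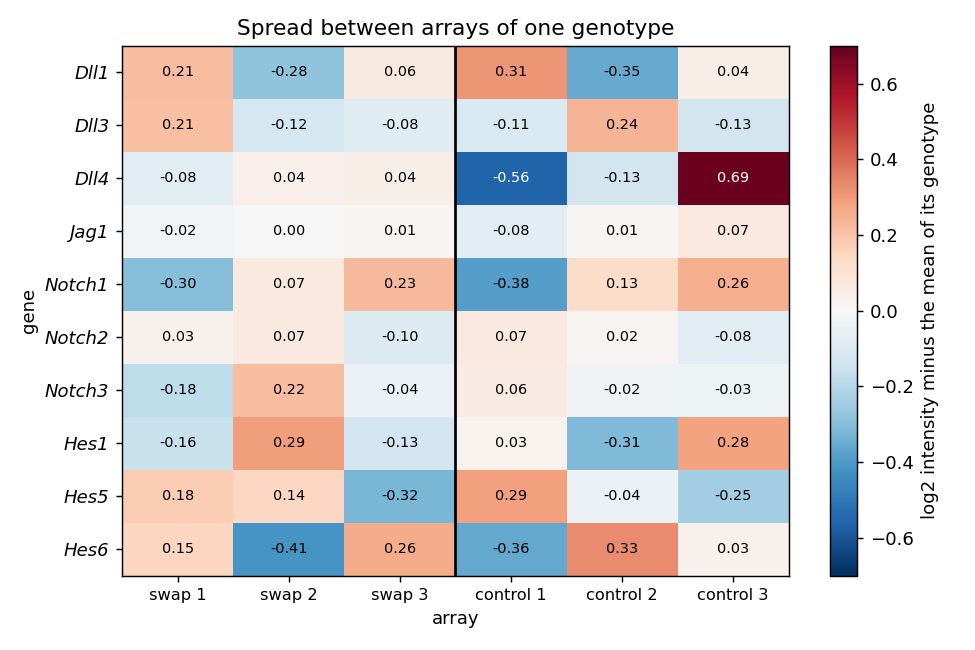
Log2 intensity of each gene on each array minus the mean of its genotype, with swap arrays left of the line and control arrays right of it. Dll4 has the widest deviations, -0.56 and 0.69 in control arrays 1 and 3, and Jag1 stays within 0.08 of its genotype means.

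Several members are transcribed by more than 1 cell type. The brightest probe set of each was therefore set beside the summed intensity of 6 marker lists over the 6 arrays. This gave 60 relations, and other probe sets of the members were not used. Hes6 had the closest relation, with the neuron markers (10 of 10 measured, summed log2 level 15.99 to 16.18 in swap arrays and 15.77 to 16.17 in control arrays). Over the 6 arrays the rank order of Hes6 was that of the neuron markers, with Pearson's r = 0.926 (two-sided exact permutation p = 0.00139) and Spearman's rho = 1.00 (exact permutation p = 0.00278). After Benjamini-Hochberg adjustment over the 60 relations these permutation p were 0.0833 and 0.167, so the relation did not pass. Without the 2 arrays farthest from the median neuron level r was 0.995, and for deviations from the genotype means it was 0.938. All arrays share 1 scaling, and the relation was singled out after its value was seen. The second Hes6 probe set had another rank order, with control array 3 (8.22) above control array 2 (8.09). The neuron markers had control array 3 (16.05) below control array 2 (16.17).

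Dll1 ran against the mesenchyme markers (8 of 8 measured, sums of 11.65 to 12.54 in swap arrays and 11.35 to 13.08 in control arrays), with r = -0.868 (two-sided exact permutation p = 0.0208) and rho = -0.771 (exact permutation p = 0.103). Against the mural cell markers (8 of 8, sums of 9.23 to 9.77 in swap arrays and 9.32 to 10.06 in control arrays) its r was -0.864 (exact permutation p = 0.0278) and its rho -0.943 (exact permutation p = 0.0167). Notch1 varied with the mural list at r = 0.873 (exact permutation p = 0.0319, rho = 0.714 with exact permutation p = 0.136). Its r was 0.245 without the 2 farthest arrays, which narrows the range of the sums. For deviations from the genotype means it was 0.872, so what the relation rests on cannot be told. On the second Notch1 probe set swap array 1 was the highest (9.61), while on the brightest it was the lowest (11.53). Of the 8 mural markers 3 were at or above the median level, and of the 8 mesenchyme markers 6. The sums of both lists were lowest in the 2 replicate 1 arrays and highest in control array 2. The 2 relations of Dll1 were thus not shown to be separate. For Dll1 r was -0.962 (mesenchyme) and -0.901 (mural) without the 2 farthest arrays of each list, so it rests on few arrays. None of these relations passed the adjustment, with adjusted permutation p of 0.479 for Pearson's r.

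Dll4 was set beside the endothelial markers (10 of 10 measured, 1 of them at or above the median level). Their sums were 9.87, 10.18 and 10.07 in the swap arrays and 9.66, 9.89 and 10.03 in the control arrays, and in the control arrays Dll4 took the same order. Over 6 arrays r was 0.802 (two-sided exact permutation p = 0.05, adjusted permutation p = 0.536), rho was 0.714 (exact permutation p = 0.136), and r was 0.679 without the 2 farthest arrays. Cdh5, the cadherin of endothelial junctions, was at 5.88, 6.20 and 7.44 in swap arrays and at 6.13, 5.87 and 6.98 in control arrays, below the median level of 6.83 except in array 3 of each genotype. Egfl7, the 1 endothelial marker at or above the median level, was at 8.46, 8.94 and 8.80 in the swap arrays. In the control arrays it was at 8.77, 8.95 and 8.99. As the brightest of the list it weighs most in the sums, and the relation was not tested without it. Of the 10 endothelial differences 8 were above 0 and 2 below, with a median of 0.38, and limma called 0 of them. The differences of Cdh5 and Egfl7 were 0.18 and -0.17. Cldn5, below the median level, had the smallest unadjusted p of the list, with a difference of 0.91 (SE 0.44). The part of endothelial RNA in the Dll4 values was not tested.

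The macrophage markers varied most (8 of 8 measured, sums of 11.22 to 12.18 in swap arrays and 8.97 to 14.05 in control arrays), and the progenitor sums least (9 of 9 measured, 15.66 to 15.70 in swap arrays and 15.61 to 15.76 in control arrays). For Hes5 and the progenitor markers r was 0.688 (exact permutation p = 0.128, rho = 0.714 with exact permutation p = 0.136). Of the 60 relations 4 had an exact permutation p under 0.05 for r and 2 for rho, and 0 passed after adjustment.

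**Figure D4:**
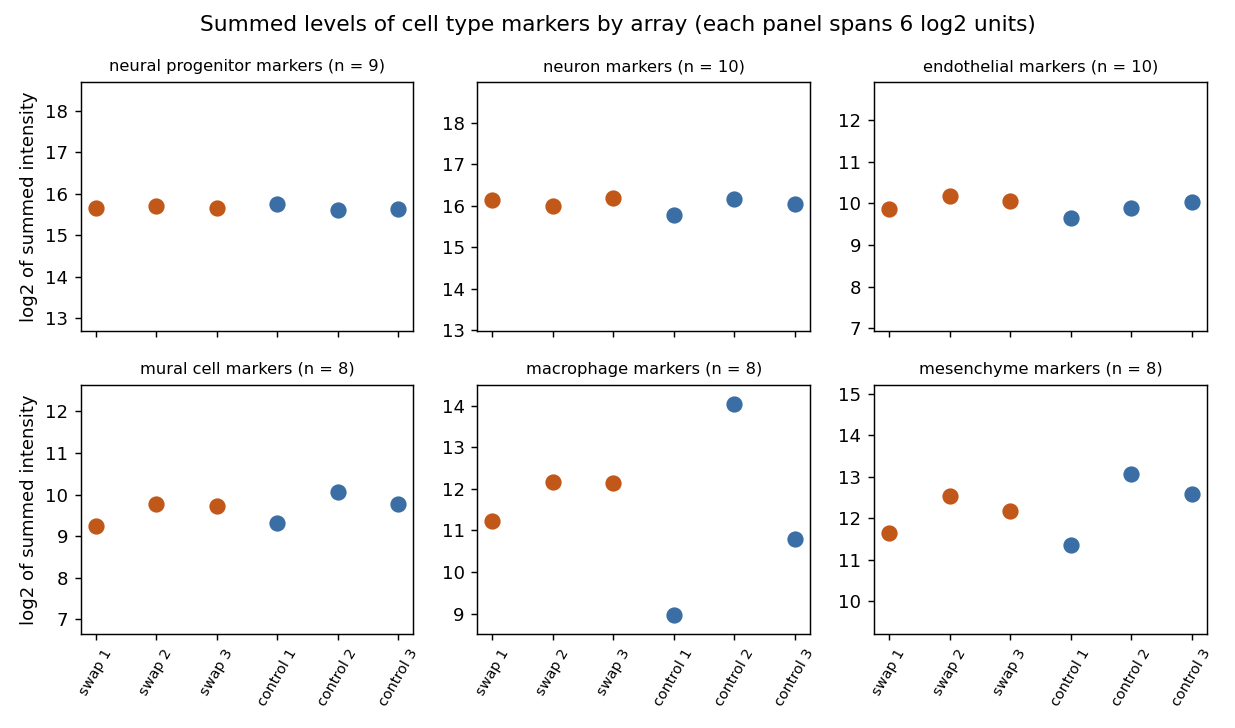
Log2 of the summed intensity of 6 marker lists on each array, swap arrays left and control arrays right, in panels of equal span. Progenitor and neuron sums range over 0.15 and 0.41 between arrays, and macrophage sums run from 8.97 to 14.05.

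Of 44 other genes of the pathway 42 were measured, from modifiers of the receptor to nuclear partners and further Hes and Hey targets. limma called 0 higher and 0 lower, 17 differences were above 0 and 25 below, and the median was -0.06, against 0.01 over all genes. At or above the median level lay 35 of them, and for 29 of the 42 the 95% interval was within 2-fold. Over all 18193 genes these counts were 11168 and 7903. Groups did not overlap for 4 of 42, against 8.85% of all genes.

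Further ligands and receptors gave the following values. Jag2, the second Jagged ligand, was at 8.09, 7.75 and 8.58 in the swap arrays and at 8.68, 8.67 and 8.61 in the control arrays, with a difference of -0.51 (SE 0.28). Its groups do not overlap, although swap array 3 lay 0.03 under the control arrays, and the mean of its probe sets gave -0.19 (SE 0.40). Notch4, a receptor of endothelium, was at 7.46, 7.40 and 7.41 in the swap arrays and at 7.30, 7.35 and 6.78 in the control arrays, with a difference of 0.28 (SE 0.25). It too did not overlap, by 0.05, and the mean of its probe sets gave -0.27.

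Among genes that make or read the signal, Poglut1, an enzyme that adds glucose to Notch receptors, did not overlap either, with a difference of -0.30 (SE 0.20). Aph1b, a subunit of the γ-secretase that cuts the receptor, had a difference of 1.06 (SE 0.65), with control array 1 at 7.19 and the other control arrays at 9.42 and 9.17. Without control array 1 it was 0.36, and with other arrays left out it reached 1.47. Rbpj, the DNA-binding partner of the cut receptor, was at 11.63, 11.64 and 11.74 in the swap arrays and at 11.55, 12.06 and 11.78 in the control arrays, a difference of -0.13 (SE 0.23).

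Of the further targets, the Hey repressor Heyl had a difference of 0.28 (SE 0.23) with groups that do not overlap, and Hey1 one of -0.26 (SE 0.25). Nrarp, a target that feeds back on the Notch complex, stood at 12.75, 13.05 and 12.96 in the swap arrays and at 13.05, 12.85 and 13.11 in the control arrays, a difference of -0.08 (SE 0.22). Hes7, a gene of the segmentation clock of mesoderm, was dim, at 3.05, 3.15 and 3.70 in the swap arrays and at 3.06, 6.33 and 6.13 in the control arrays, which differed by -1.87 (SE 0.92). Leaving out control array 1 gave -2.93 and control array 2 gave -1.29, and with an offset of 64 added to the intensities it was -0.60. Notch4, Poglut1, Heyl, Rbpj, Hey1 and Nrarp were chosen after their values were seen, and Jag2, Aph1b and Hes7 had the smallest unadjusted p of the list. limma's adjusted p was 1.00 for each of these 9 genes.

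**Figure D5:**
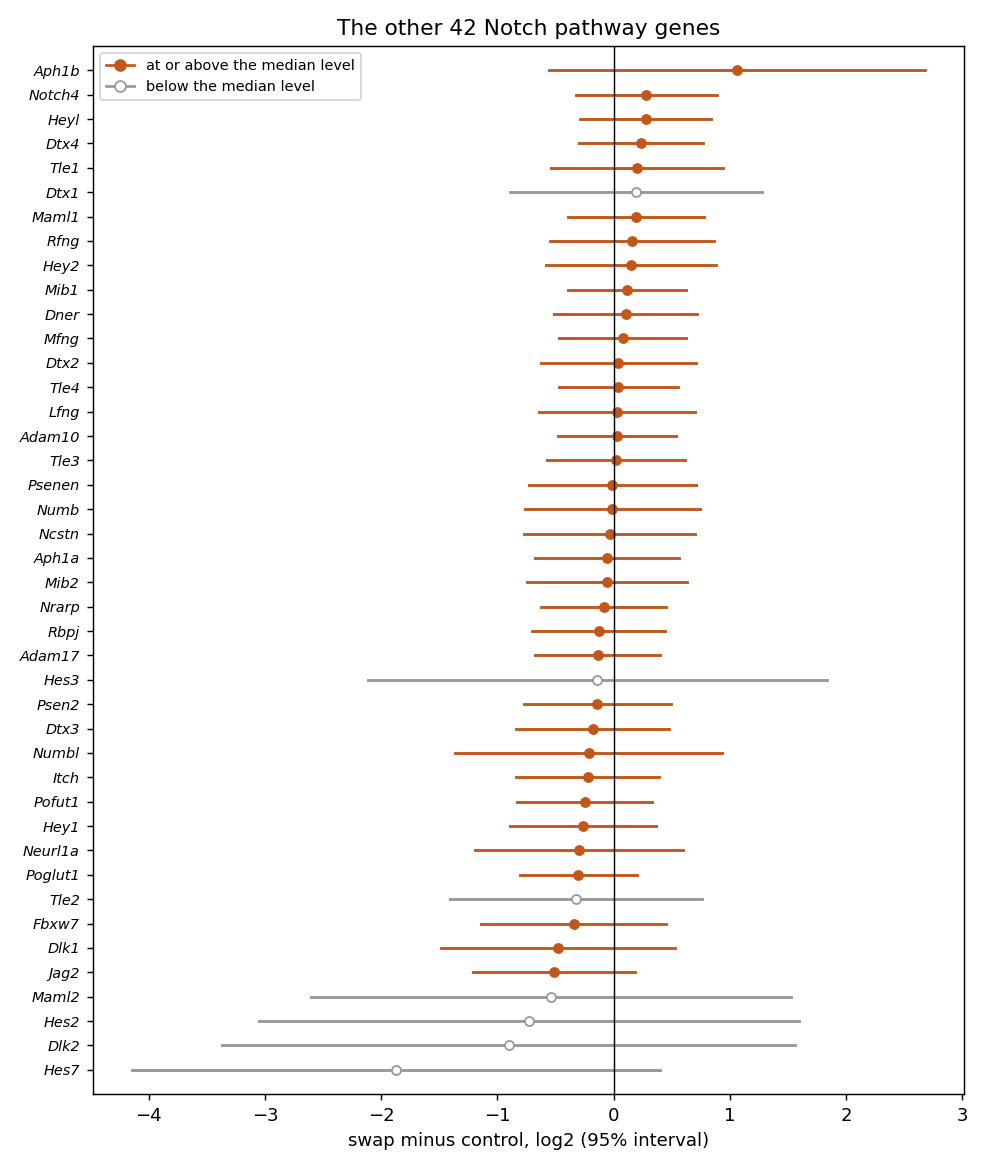
Swap minus control difference (log2, horizontal axis) of the other 42 Notch pathway genes with 95% intervals from limma, sorted by size. Open points lie below the median level, and all 42 intervals include 0.

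Proneural factors, which switch on Delta genes, were measured for 8 of 9 listed, with 6 differences above 0 and 2 below, a median of 0.20 and 0 called by limma. Neurog1, a proneural factor of dorsal hindbrain and sensory ganglia, was at 8.94, 9.06 and 9.25 in the swap arrays and at 9.64, 9.90 and 9.28 in the control arrays. Its groups do not overlap, by 0.02, its difference was -0.52 (SE 0.26), and the mean of its probe sets gave 0.27. Neurog3, below the median level, had a difference of 0.97 (SE 0.65), and Neurod4, active in cells leaving the cycle, one of 0.28 (SE 0.23), which was 0.16 without swap array 1.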

How the data were processed

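Amplified RNA of sorted cells was measured on Affymetrix mouse arrays, per the series design. The deposited values are linear intensities of 45101 probe sets. The submitters' processing notes name the affy package, with version and methods not given in the sources used here. Each array of the deposited intensities has a 2% trimmed mean of 500, so the authors' values had been scaled. There are no detection calls, and scan dates were not used here, so no batch could be tested. p-values measure the spread between pooled litters.

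After 64 control probe sets were left out, log2 was taken with no offset (all intensities were above 0). Of 45037 probe sets 34945 had 1 symbol in the platform's probe table, 932 had several and 9160 had none. 34741 Entrez identifiers matched RefSeq, and 0 symbols changed. Differences were fitted with limma 3.58.1 in R 4.3.3 (lmFit and eBayes, genotype only), two-sided, adjusted by Benjamini-Hochberg over all probe sets at 0.05. The fit was tested on simulated data. The members and lists were chosen with earlier results of these data known. Named genes are all members, Hoxb1 and, from other lists, any gene that passed the test or otherwise the 3 with the smallest unadjusted p. Notch4, Poglut1, Heyl, Rbpj, Hey1 and Nrarp lie outside this rule and were chosen after their values were seen. Marker lists also allow their 3 highest members, and of these lists few genes are printed. Alternatives were median centring, quantile normalization, a filter at the median level, the replicate number as a block, a trended and robust prior, array weights, an offset of 64, the mean or median of a gene's probe sets, and leaving out each array. The setting without both replicate 1 arrays was added after seeing the data. The Hox protein made in the swap group is not named here.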

Additional observations from a re-analysis of the deposited data

How the results depend on the processing

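limma called 0 members, 0 other pathway genes and 0 probe sets under all 16 alternatives (smallest adjusted p 0.241 over all features and 0.960 over the members). An unadjusted p under 0.05 was held by 1624 to 2375 of 45037 probe sets in the settings that test all of them, by 838 of 22519 after the filter, and by 801 and 782 of 18193 genes with the mean and median of probe sets. With the replicate number as a block 0 were called. Deviations of same-numbered swap and control arrays correlated at 0.234, 0.0313 and 0.224 for numbers 1, 2 and 3. Swap arrays 1 and 3 correlated best with their own number, and swap array 2 by a small margin with control array 1 (0.0393). The labels do not say that a number marks a shared litter or day, so the main fit does not pair the arrays. Shared handling by number was not tested. Of 159 alternative values of the members 141 kept their sign and 18 turned, and of 206 values of the other named genes 10 turned, all in differences that had not passed. With the mean of the probe sets the values that turned were Dll4 at -0.17, Notch1 at 0.0083, Notch2 at -0.15, Hes5 at 0.10, Neurog1 at 0.27, Notch4 at -0.27 and Nrarp at 0.012. The median of the probe sets gave the same for Dll4, Notch1, Notch2, Hes5, Neurog1 and Nrarp, while Notch4 was at -0.58 and Neurod4 at -0.11. Without a turn, the mean moved Jag1 to -0.59, Notch3 to -0.30, Jag2 to -0.19, Aph1b to 0.66, Neurog3 to 0.64, Heyl to 0.44, Hes6 to 0.0080 and Rbpj to -0.014. These settings read other probe sets of the gene. With an offset of 64 Hes7 was at -0.60 and Neurog3 at 0.40. Hes5 was at 0.0069 with median centring and 0.024 with array weights. Without both replicate 1 arrays Hes5 was at 0.032, Hes6 at -0.14 and Nrarp at 0.024, and Notch3 moved to -0.07, Hes1 to -0.08, Hey1 to -0.02 and Aph1b to 0.58. With 1 array left out the values ran from -0.17 to 0.050 for Dll3, -0.031 to 0.59 for Dll4, -0.15 to 0.14 for Hes5, -0.061 to 0.32 for Hes6, -0.25 to 0.0028 for Rbpj and -0.16 to 0.00030 for Nrarp. Without a turn, they ran from -0.74 to -0.32 for Jag2, 0.10 to 0.39 for Notch4, 0.15 to 0.38 for Heyl, -0.40 to -0.09 for Hey1, 0.36 to 1.47 for Aph1b, 0.16 to 0.39 for Neurod4 and 0.49 to 1.52 for Neurog3. The cause of the turns under scaling, weights and left-out arrays was not tested. With the filter at the median level Dll4, Hes7 and Neurog3 gave no value. The median SE was 0.282 for probe sets from the median level up and 0.731 for dimmer ones.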

Other observations

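Dll3, Hes7 and Lfng also act in the segmentation clock of the presomitic mesoderm, a tissue of the trunk. Its 4 markers, Tbx6, Msgn1, Mesp2 and Ripply2, were all below the median level, with summed log2 levels of 6.94 to 7.58 in swap arrays and 6.71 to 7.72 in control arrays, and limma called 0 of them. The cranial sensory ganglion list (4 of 6 measured) had 1 difference above 0 and 3 below with a median of -0.13, and the erythroid list (5 of 6 measured) had 0 above 0 and 5 below with a median of -0.62. limma called 0 in either list. In the swap arrays Hbb-y, the brightest of the erythroid list, was at 13.56, 14.22 and 14.32. In the control arrays it was at 13.92, 14.32 and 14.30. Its probe set is of the x_at type. Whether erythroid RNA came from sorted cells or was carried over was not tested.

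Medians of the remaining lists, with 0 members called by limma, were 0.02 for neural progenitor markers, 0.12 for neuron markers, -0.29 for rhombomere 4 and facial motor neuron markers, 0.38 for endothelial, -0.25 for mural cell, 0.52 for macrophage and -0.19 for mesenchyme markers.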
